A study of Mus musculus with 3 samples.

Results

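In all, 10 genes of lymphocyte killing and of the signals that go with it were followed through the immune cells of the mouse kidney. They were the granzymes Gzma, Gzmb and Gzmk, the pore former Prf1, the granule genes Nkg7 and Ctsw, the cytokine Ifng, the death ligand Fasl and the chemokines Ccl5 and Xcl1. The genes were taken by name, 10 of the 32886 gene columns of the table, and all 10 were detected. Natural killer (NK) cells and cytotoxic T cells kill by releasing granules onto a target cell. Perforin opens its membrane, granzymes enter and cleave proteins inside it, and Fas ligand on the killer can start the same death through the receptor Fas. The same lymphocytes release interferon gamma and chemokines, which act on macrophages, dendritic cells and other lymphocytes nearby.

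The cells came from untreated (labelled untouched) wild-type male C57BL/6J mice aged 10 weeks, whose kidneys were dissected into the cortex, the outer part of the medulla (OM) and its inner part (IM), digested and sorted for CD45, a surface protein of immune cells. The labels name no transgene, Cre or injected agent, and all groups share sex, age and strain. Facilities in Aachen, Bonn and Hamburg each profiled all 3 compartments with single-cell RNA sequencing in droplets, so that 9 libraries resulted and the facility was the replicate. How many mice went into a library is not given in the sources used here. The p-values of the main tests therefore measure how far differences between compartments varied over the 3 facilities, and not a spread between mice. The table held 20266 cells in 23 clusters named by the authors.

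Depth differed between facilities. The median was 744 to 1270 UMIs (unique molecular identifiers, each marking 1 captured RNA molecule) per cell in the Aachen libraries and 2802 to 3505 in the Bonn and Hamburg libraries, and Aachen used 10x chemistry version 2 where the others used version 3. Facility and chemistry cannot be told apart. Libraries held 621 to 3677 cells, the fewest in the OM library of Bonn. Of 20042 distinct cell barcodes, 219 occurred in more than 1 library, 29 of them within 1 facility. The barcodes carried 2 different suffixes in each Aachen library and 1 in each library of Bonn and Hamburg. Whether an Aachen library joins 2 runs is not given in the sources used here. Cells with at least 2 UMIs of B cell or macrophage markers, possible doublets, were 226 of 1133 NK cells, 1093 of 5236 T cells and 163 of 424 ILC2 and were kept.

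The cluster names were checked against marker genes. The 9 NK cell markers summed to 8428 to 12492 CPM (UMIs of a gene per 1000000 UMIs of the same cells) over the facilities in the 1133 NK cells (NK_cell_1 and NK_cell_2) and to 395 to 909 CPM in the 5236 T cells (T_cell_1 to T_cell_4). The 9 T cell markers summed to 3455 to 5220 CPM in T cells and to 453 to 814 CPM in NK cells. Trac, Trbc1 and Trbc2, which are among these 9 and encode constant parts of the T cell receptor, were listed at 0 in every Aachen cell, as were the gamma delta receptor genes looked at. Ncr1, which encodes an activating NK receptor, was at a mean of 944 CPM in NK_cell_1 and 1051 CPM in NK_cell_2. The clusters differed in Eomes, a transcription factor of mature NK cells, at 276 and 14.0 CPM, and in Cxcr6, a chemokine receptor of tissue-resident lymphocytes, at 24.7 and 548 CPM. The 6 markers of type 1 innate lymphoid cells (ILC1) summed to 111 ± 48.0 CPM (SD, n = 3 facilities) in NK_cell_1 and to 1262 ± 369 CPM in NK_cell_2. Each of the 6 had its higher mean in NK_cell_2. By Eomes and these markers NK_cell_2 was like ILC1, so that its name is the authors' and not borne out here. The term NK cells is used below for both clusters together. Among T cells, Cd8b1 was at 1145 CPM in T_cell_2 and 72.7 CPM in T_cell_1, while Cd4 was at 11.4 and 157 CPM. These clusters were made from the same expression values, so that levels across clusters are a description and carry no test.

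Promoters of 4 genes are shown because their genes peaked in different lymphocytes, Gzma and Gzmb in NK_cell_1, Gzmk in T_cell_2 and Xcl1 in NK_cell_2. They are RefSeq sequences of GRCm38.p6, 5′ to 3′ on the strand of the gene, from 250 bases before to 50 bases after the start of transcription. All 4 lie on the minus strand, at chr13:113100932-113101231, chr14:56262285-56262584, chr13:113180916-113181215 and chr1:164935473-164935772. Capitals mark matches, on either strand, to GGTGTGA (a T-box half-site, the kind of site that T-bet and Eomes bind), TGTGGT (RUNX), TGANTCA (AP-1), TGACGTCA (the cyclic AMP response element) or GGAAAA (NFAT).
Gzma: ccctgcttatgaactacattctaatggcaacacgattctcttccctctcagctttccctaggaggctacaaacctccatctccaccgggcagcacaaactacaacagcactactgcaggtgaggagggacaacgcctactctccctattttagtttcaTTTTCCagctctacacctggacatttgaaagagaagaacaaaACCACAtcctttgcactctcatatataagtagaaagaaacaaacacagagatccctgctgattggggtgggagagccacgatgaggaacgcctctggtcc
Gzmb: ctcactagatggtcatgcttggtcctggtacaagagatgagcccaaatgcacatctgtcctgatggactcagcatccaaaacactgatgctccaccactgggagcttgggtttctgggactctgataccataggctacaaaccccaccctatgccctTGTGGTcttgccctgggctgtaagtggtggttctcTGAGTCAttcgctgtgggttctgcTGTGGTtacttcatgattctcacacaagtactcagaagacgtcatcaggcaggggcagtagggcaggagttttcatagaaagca
Gzmk: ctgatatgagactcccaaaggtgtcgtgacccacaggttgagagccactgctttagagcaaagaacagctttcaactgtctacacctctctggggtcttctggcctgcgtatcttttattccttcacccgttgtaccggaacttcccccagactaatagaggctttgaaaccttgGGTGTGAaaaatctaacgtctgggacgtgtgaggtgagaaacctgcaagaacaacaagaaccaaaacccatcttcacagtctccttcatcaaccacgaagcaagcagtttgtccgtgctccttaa
Xcl1: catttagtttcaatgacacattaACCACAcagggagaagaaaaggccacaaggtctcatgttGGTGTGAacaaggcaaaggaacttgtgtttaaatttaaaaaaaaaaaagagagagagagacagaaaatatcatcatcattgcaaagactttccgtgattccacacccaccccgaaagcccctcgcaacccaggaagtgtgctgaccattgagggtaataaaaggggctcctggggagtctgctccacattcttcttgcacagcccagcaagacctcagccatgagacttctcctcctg
Promoters were found for 8 of the 10 genes, Ctsw and Ccl5 being without an entry. The T-box letters were present in Gzmk, Nkg7 and Xcl1, against 3.98% of 32851 promoters of this length. The RUNX letters were present in Gzma, Gzmb, Prf1, Nkg7 and Xcl1, against 16.8% of promoters. The AP-1 letters were present in Gzmb (7.81% of promoters) and the NFAT letters in Gzma and Fasl (23.4%), while TGACGTCA (1.79%) matched in no promoter of the set and Ifng held none of the 5. A match is a run of letters and not a binding site.

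The genes lie on 7 chromosomes (GRCm38, GENCODE vM21). Gzma (chr13:113093825-113100981) and Gzmk (chr13:113171608-113225908) are neighbours on chromosome 13, and Xcl1 (chr1:164931644-164935527) and Fasl (chr1:161780689-161788495) share chromosome 1. The RefSeq start of Gzmk lies inside its longer GENCODE span, which overlaps Esm1 on the opposite strand, that of Ctsw overlaps Fibp and that of Xcl1 overlaps Gm20743, both also on the opposite strand. Ifng overlaps Gm49751 on the same strand. How reads in such overlaps were assigned is not given in the sources used here.

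Gzma, a trypsin-like granzyme, was the gene most tied to a single cluster. Its level in NK_cell_1 was 10229 CPM in Aachen, 13323 in Bonn and 8019 in Hamburg, or 10524 ± 2664 CPM (SD, n = 3). T_cell_2 followed at 523 ± 112 CPM and NK_cell_2 held 175 ± 106 CPM, and the highest value of T_cell_2 in any facility was 646 CPM. NK_cell_1 made up 2.99% of the cells and held 82.1% of all Gzma UMIs. After thinning each cell to 500 UMIs, 90.4 to 93.2% of NK_cell_1 cells had a Gzma UMI, against 2.59 to 7.34% in NK_cell_2, 7.03 to 12.8% in T_cell_2 and 0 to 0.613% in the B cells of B_cell_1, which should lack the gene. Outside lymphocytes, Gzma UMIs sat in few cells, such as 102 UMIs in 2 of 99 plasmacytoid dendritic cells and 81 in 4 of 714 monocytes.

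Gzmb, a granzyme that cleaves after aspartate and can activate caspases, also peaked in NK_cell_1, at 1148, 995 and 1784 CPM in Aachen, Bonn and Hamburg. Below it, neighbouring clusters in the order overlapped. Among them ILC2 had the next mean, at 286 CPM, which lay in 12 cells described below. T_cell_2 held 263 ± 96.4 CPM and NK_cell_2 260 ± 99.9 CPM (SD, n = 3). T_cell_4 owed its highest value, 564 CPM in Aachen, to a single cell with 33 UMIs. NK_cell_1 held 41.4% of all Gzmb UMIs and T_cell_2 22.9%.

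Gzmk was a gene of T cells. In T_cell_2 it was at 177 CPM in Aachen, 333 in Bonn and 246 in Hamburg, and this cluster, 8.21% of the cells, held 71.8% of all Gzmk UMIs. NK_cell_1 held 6.54 ± 7.70 CPM and NK_cell_2 5.92 ± 3.25 CPM. At 500 UMIs per cell, 8.25 to 15.1% of T_cell_2 cells had a Gzmk UMI, against 0 to 0.245% of B_cell_1 cells. No NK_cell_1 cell kept a Gzmk UMI at this depth. Gzma and Gzmk, neighbours in the genome, therefore had their highest levels in an NK cluster and in a T cell cluster.

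Prf1, which encodes perforin, followed Gzma and Gzmb in its place but not in its spread. NK_cell_1 held 71.4 CPM in Aachen, 1141 CPM in Bonn and 849 CPM in Hamburg, and NK_cell_2 held 14.6, 206 and 186 CPM. The Aachen value was the lowest also in T_cell_1, T_cell_2 and T_cell_3, so that the NK_cell_1 range overlapped that of NK_cell_2 although NK_cell_1 was higher within each facility. Across all cells the cluster NK_cell_1 held 61.2% of Prf1 UMIs. T_cell_2 was at 67.1 ± 53.2 CPM (SD, n = 3).

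Nkg7, a protein of the granule membrane needed for granule release, and Ctsw, the cysteine protease cathepsin W, were found in NK and T cells alike. Nkg7 was at 4459.5 ± 1239 CPM in NK_cell_1, 2456 ± 437 CPM in T_cell_2, 2047 ± 442 CPM in NK_cell_2 and 1162 ± 140 CPM in T_cell_1 (SD, n = 3). T_cell_2 and NK_cell_2 overlapped, while NK_cell_1 lay above and T_cell_1 below every value of theirs. Ctsw had its highest mean in NK_cell_2, at 1211 ± 292 CPM, and then in NK_cell_1, at 854 ± 184 CPM. Neighbouring clusters in the order of Ctsw overlapped, yet NK_cell_2 exceeded NK_cell_1 within each of the 3 facilities.

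Fasl, the ligand of the death receptor Fas, and Ifng, the main cytokine that activates macrophages, had overlapping levels in NK_cell_1, NK_cell_2, T_cell_1 and T_cell_2. Fasl was at 205 ± 105, 176 ± 89.0, 138 ± 69.9 and 144 ± 59.0 CPM in these clusters (SD, n = 3), and Ifng at 486 ± 455, 641 ± 572, 593 ± 487 and 489.7 ± 327 CPM. Facilities differed more than clusters for Ifng. T_cell_1 held 455 CPM in Aachen, 189.5 CPM in Bonn and 1135 CPM in Hamburg, and the same order held in all 4 clusters. The cluster T_cell_1, the largest of the T cells with 11.7% of all cells, held 42.0% of Ifng UMIs.

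**Figure D1:**
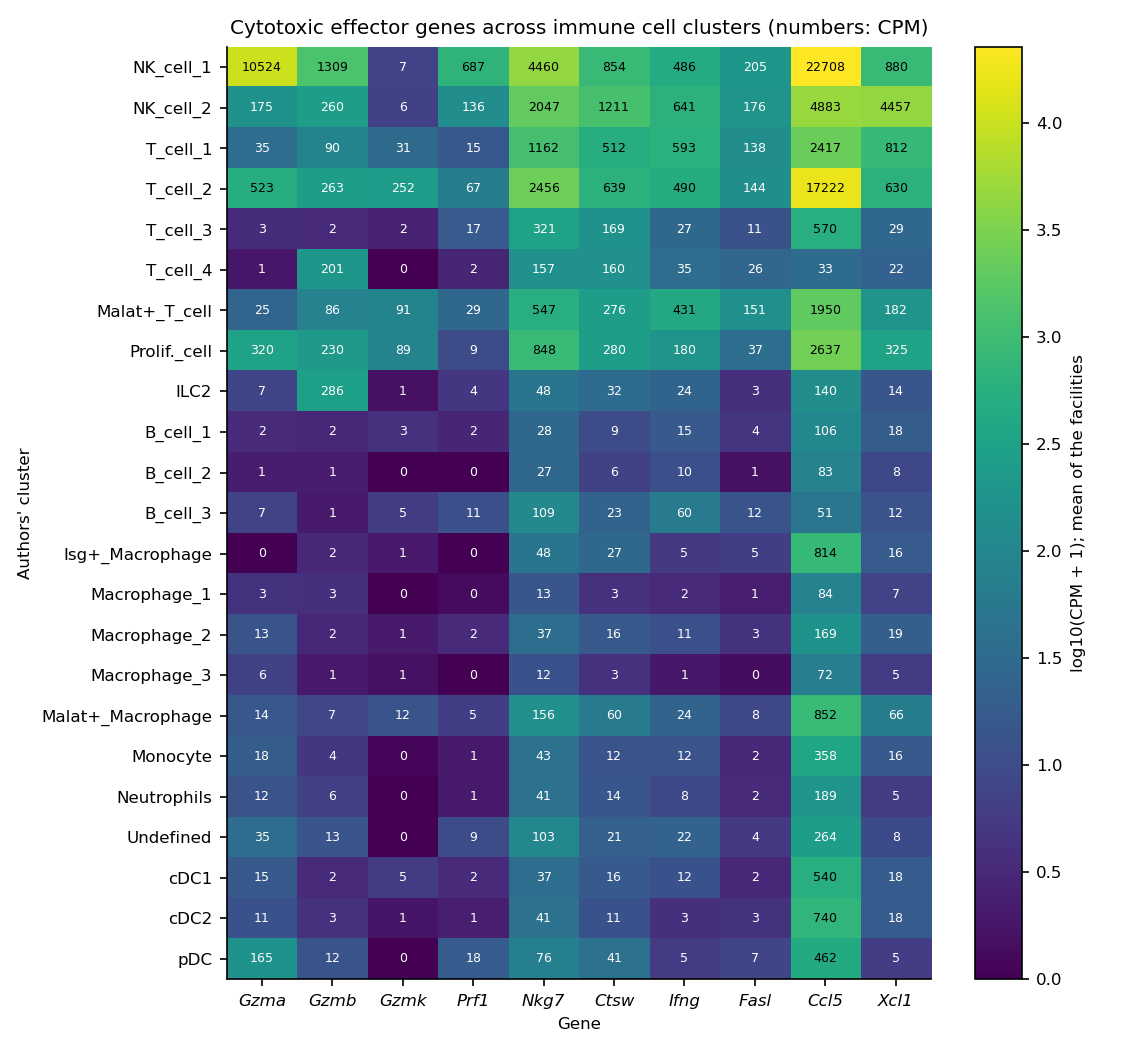
Heat map of the mean level of the 10 genes (columns) in the authors' 23 clusters (rows), as log10(CPM + 1) in colour and CPM in the cells of the map, each a mean over facilities. Gzma, Gzmb, Prf1, Nkg7, Fasl and Ccl5 peak in NK_cell_1, Xcl1, Ctsw and Ifng in NK_cell_2 and Gzmk in T_cell_2.

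The chemokines divided the lymphocytes differently. Ccl5, which attracts T cells, monocytes and other leukocytes, was at 35070.1, 17120 and 15934 CPM in NK_cell_1 in Aachen, Bonn and Hamburg and at 22771, 15282 and 13614 CPM in T_cell_2. These 2 clusters overlapped and lay above NK_cell_2, at 4883 ± 1815 CPM, and T_cell_1, at 2417 ± 1012 CPM (SD, n = 3). Because T_cell_2 was large, it held 53.0% of Ccl5 UMIs. At 500 UMIs per cell, 97.9 to 99.4% of NK_cell_1 and 93.8 to 98.6% of T_cell_2 cells had a Ccl5 UMI, and 0.246 to 4.41% of B_cell_1 cells.

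Xcl1, which attracts dendritic cells of the cDC1 type through Xcr1, was highest in NK_cell_2, at 4623 CPM in Aachen, 3853.5 in Bonn and 4895 in Hamburg. NK_cell_1 held 434, 489.9 and 1714 CPM, T_cell_1 812 ± 222 CPM and T_cell_2 630.3 ± 273 CPM, and these 3 overlapped. At 500 UMIs per cell, 66.2 to 77.6% of NK_cell_2 cells had an Xcl1 UMI, against 12.05 to 39.9% of NK_cell_1 cells. The receptor Xcr1 was at 336 ± 70.02 CPM in cDC1 (SD, n = 3), with 15.5 ± 1.33 CPM over all immune cells. Ccr1, a receptor of Ccl5, was highest in neutrophils (594 ± 177 CPM) and Ifngr1, a receptor chain of interferon gamma, in NK_cell_1 (785 ± 416 CPM).

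**Figure D2:**
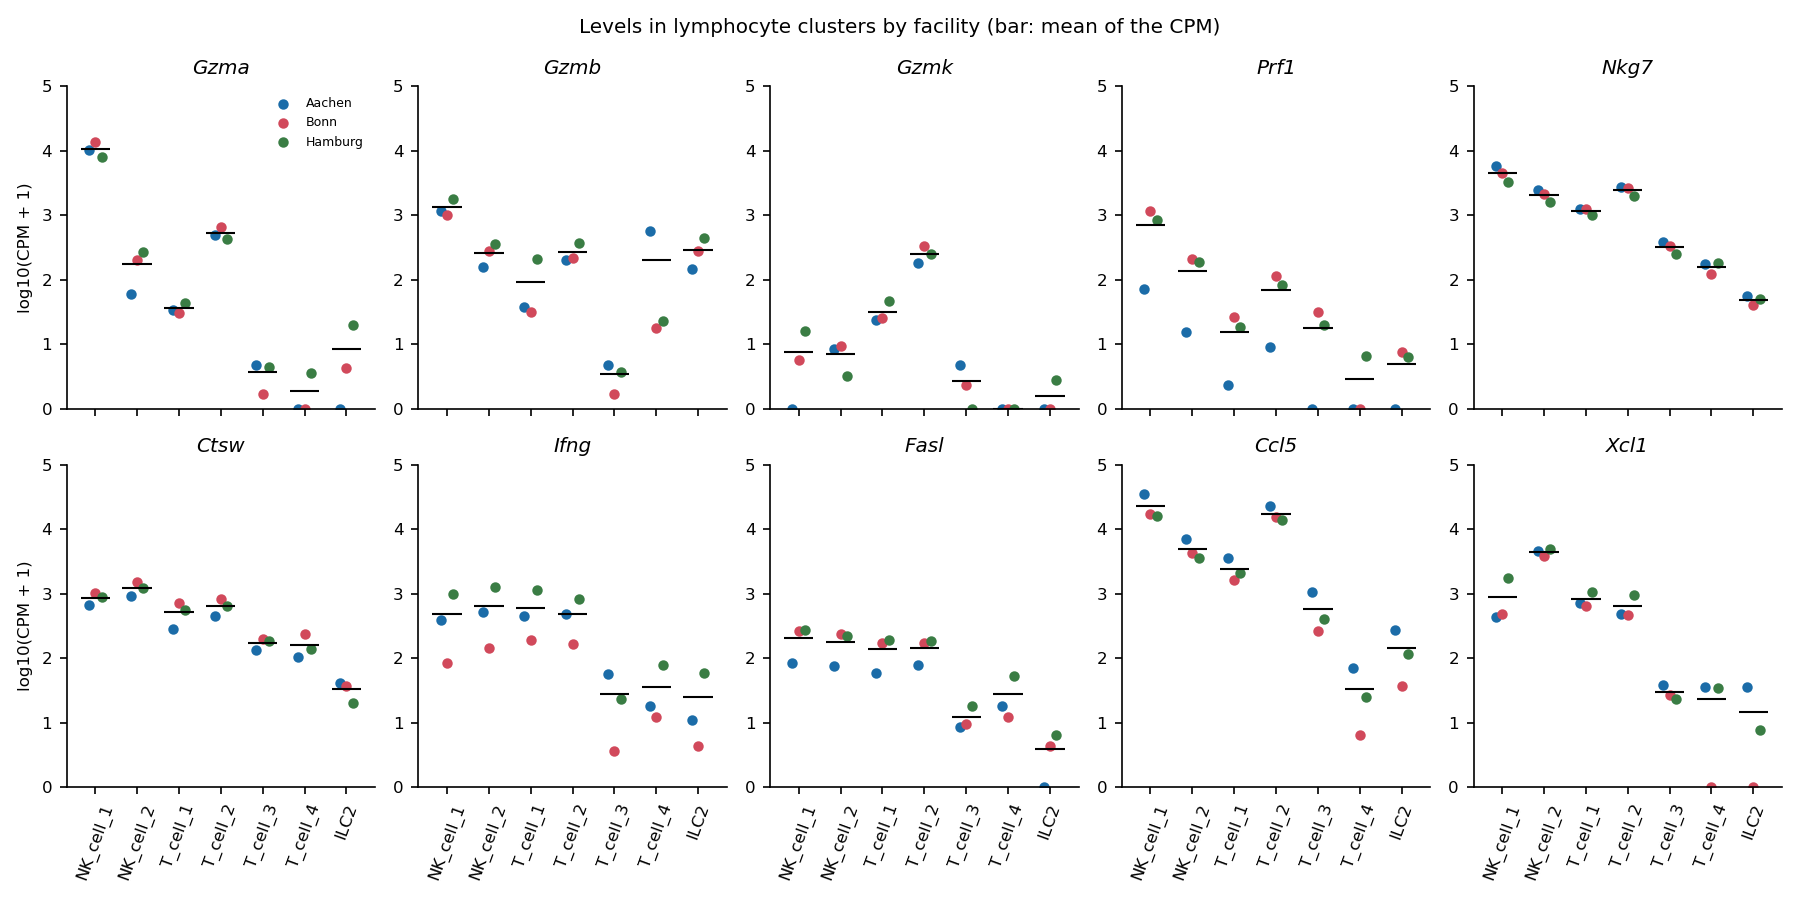
Level of each gene, 1 panel per gene, in the 7 NK, T and ILC2 clusters (horizontal axis) as log10(CPM + 1) (vertical axis), with 1 point per facility and a bar at the mean. The Aachen points of Prf1 and Fasl lie lowest in the NK clusters and in T_cell_1 and T_cell_2, and the Hamburg points of Ifng lie highest there.

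Of 606 NK_cell_1 cells, 595 had a Gzma UMI, 409 a Gzmb UMI and 378 a Prf1 UMI. Prf1 had a UMI in 10 of 183 of these cells in Aachen, against 173 of 190 in Bonn and 195 of 233 in Hamburg, so that shares pooled over facilities mix these levels. In Aachen, 6.02% of cells with a Gzmb UMI and 5% of those without had a Prf1 UMI. In Bonn these were 92.8 and 86.5%, and in Hamburg 85.6 and 75.6%. In NK_cell_2, 44 of 527 cells had a Gzma UMI, and of these 81.8% had an Xcl1 UMI, against 94.8% of the other cells.

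In T_cell_2, 231 of 1664 cells had a Gzma UMI and 601 a Gzmk UMI. In Aachen, Bonn and Hamburg, 16.5, 50.1 and 46.3% of these cells had a Gzmk UMI. For Gzmb the shares were 16.5, 23.0 and 30.3%, and for Gzma 15.8, 11.9 and 13.3%. The shares that follow in this paragraph pool the facilities, mix these levels and are not given by facility here. Of the cells with a Gzmk UMI 13.6% had a Gzma UMI, against 14.0% of the cells without one, at median depths of 2872 and 2053 UMIs. Gzmb, in contrast, was found in 31.1% of cells with Gzmk and 19.0% of cells without it, and in 62.8% of cells with Gzma and 17.0% of cells without it. Xcl1 went the other way, with a UMI in 18.6% of cells with Gzma and 46.3% of cells without it. The T_cell_2 cells with and without Gzma had median depths of 2207 and 2526 UMIs.

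The T_cell_2 cells with Gzma carried other genes than their neighbours. Klrg1, an inhibitory receptor of effector T cells, had a UMI in 21.2% of cells with Gzma and 1.81% of cells without it. Zeb2, a transcription factor of effector cells, had a UMI in 43.7 and 11.2%, and Klre1, an NK receptor, in 28.6 and 9.14%. Cxcr6, of resident cells, had a UMI in 27.3 and 53.0%. Each of these 4 differences had the same direction in Aachen, Bonn and Hamburg. A UMI of Cd3d, Cd3e or Cd3g was found in 93.9% of cells with Gzma and 94.8% of cells without it, and a Cd8a or Cd8b1 UMI in 74.5 and 81.2%.

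Over all T cells, 38.9% had a UMI of Cd8a or Cd8b1. The share was 78.8% among the 756 T cells with Gzmk, 64.6% with Gzma, 65.8% with Gzmb and 66.8% with Prf1, while it was 35.2% with Xcl1 and 38.3% with Ifng. For Gzmk the share was 78.1 to 79.7% in the 3 facilities. The granzymes and Prf1 thus sat mostly in T cells with CD8 transcripts, and Ifng and Xcl1 in T cells with and without them at about the share of all T cells.

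Other genes of the granule and of the cytotoxic program were also measured. Among 18 other granule genes, Srgn, the proteoglycan that packs granule proteins, had the highest mean in NK cells, at 889 CPM in NK_cell_1 and 1271 CPM in NK_cell_2. Lymphocytes protect themselves with Serpinb9, an inhibitor of Gzmb, which was at 361 CPM in NK_cell_1, 161 CPM in NK_cell_2 and 54.4 CPM in T_cell_2. Ccl4 and Ccl3, related chemokines, were at 3466 and 1163 CPM in NK_cell_1 and at 2571 and 410.1 CPM in T_cell_2. Among the transcription factors, Tbx21, which encodes T-bet, was at 288 CPM in NK_cell_1, 252 CPM in NK_cell_2, 157 CPM in T_cell_1 and 117 CPM in T_cell_2.

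Across the 23 clusters, the genes nearest to each of the 10 in level were found by Pearson's r of log2(CPM + 10), as a description over clusters that share libraries. Klra7, an NK receptor, was nearest to Gzma (r = 0.95), Sytl3 to Gzmb (0.92), Rgs16 to Gzmk (0.82) and Klrc2 to Prf1 (0.95). Nkg7 and Ctsw were nearest to each other or nearly so, with r = 0.97 between them and 0.98 between Ctsw and Il2rb. Tbx21 was nearest to Fasl (0.98), Fasl to Ifng (0.97), Klrc1 to Xcl1 (0.96) and Dapk2 to Ccl5 (0.87).

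The compartments were compared within facilities, on counts summed per library and cell class. In NK cells, 9 of the 10 genes could be tested, Gzmk being too low, and no gene passed in any contrast with edgeR. The 4 contrasts set medulla (OM and IM averaged), OM alone and IM alone against cortex, and OM against IM, and 0 of 2908 genes tested passed in each of them (0% called). In this order, unadjusted p was under 0.05 for 132, 122, 113 and 65 genes, and DESeq2 called 0 in each contrast. Gzma was at 3189, 7436 and 6193 CPM in cortex, OM and IM in Aachen, at 7704, 4525 and 9699.9 CPM in Bonn and at 2807, 5468 and 4476 CPM in Hamburg. Its medulla libraries exceeded cortex in Aachen and Hamburg, and in Bonn the OM library was the lowest of the 3. The log2 fold change was 0.59 ± 0.22 (SE; edgeR adjusted p = 0.89), and that of Ccl5 was 0.50 ± 0.21 (edgeR adjusted p = 0.966).

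The NK result turned on 1 library, the OM library of Bonn, with 19 NK cells. Without it, which is also what a minimum of 20 cells per library gives, 2 of the genes were called for medulla against cortex, where 0.627% of 5904 genes passed. These were Gzma, higher in medulla by 0.86 on the log2 scale (edgeR adjusted p = 1.31e-10), and Ccl5, higher by 0.73 (edgeR adjusted p = 4.67e-10). For OM against cortex 0.813% of genes passed, and among them Gzma (1.01), Ccl5 (0.89) and Gzmb (0.80) were higher in OM and Xcl1 was lower (log2 fold change -0.67, edgeR adjusted p = 0.0049). For IM against cortex, with 0.0847% called, Gzma (0.70) and Ccl5 (0.58) were higher in IM. For OM against IM, with 0.186% called, Gzmb was higher in OM by 0.86 (edgeR adjusted p = 0.0013). Without the cortex library of Bonn, Gzma alone was called for medulla against cortex (0.99, edgeR adjusted p = 0.033), and the share of all genes called there is not given here.

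**Figure D3:**
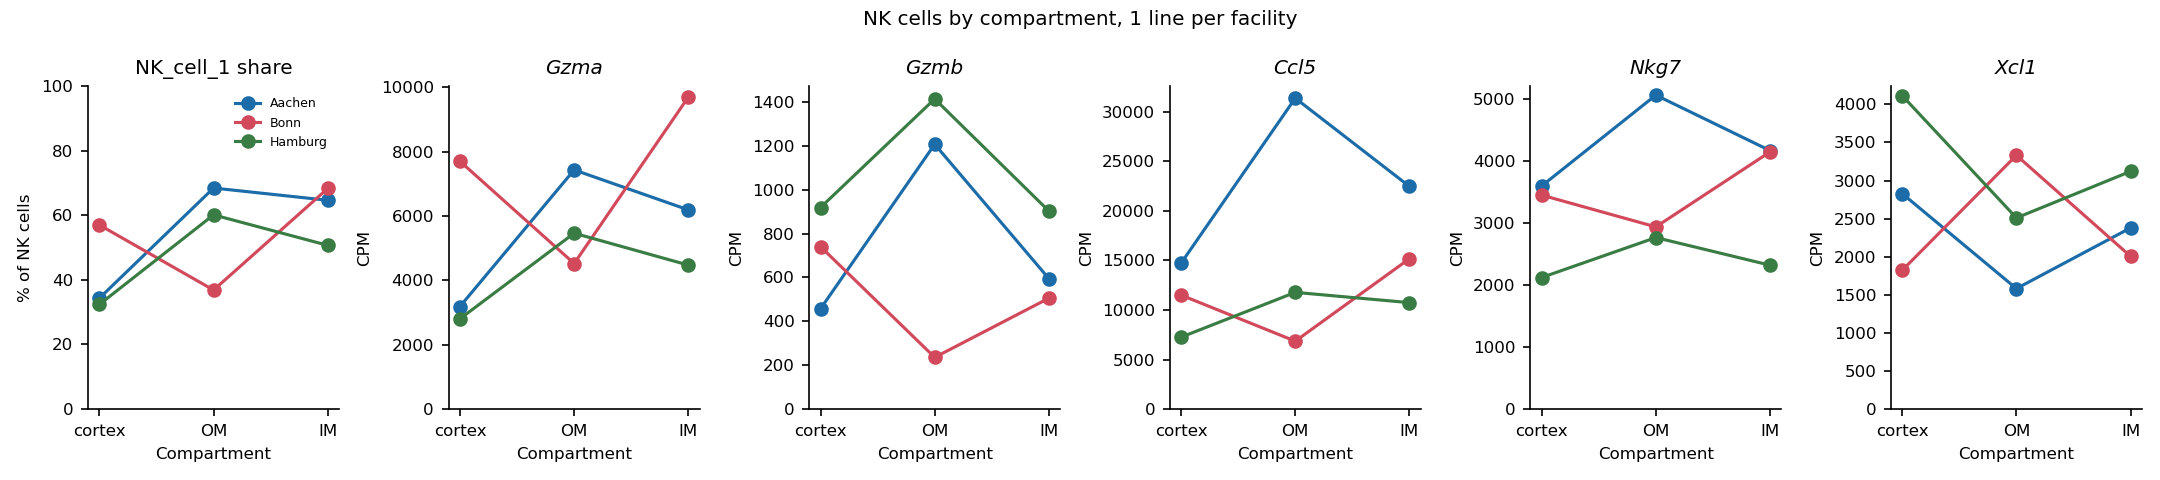
Share of NK cells in NK_cell_1 (percent) and level of Gzma, Gzmb, Ccl5, Nkg7 and Xcl1 in all NK cells (CPM) by compartment, with 1 line per facility. In Aachen and Hamburg the OM point lies above cortex for the share, Gzma, Gzmb, Ccl5 and Nkg7 and below it for Xcl1, while the Bonn line, with 19 NK cells in OM, runs the other way.

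The make-up of the NK cells moved with these values. In Aachen, NK_cell_1 was 34.3, 68.4 and 64.6% of NK cells in cortex, OM and IM. The Bonn libraries held 57.0, 36.8 and 68.3%, and the Hamburg libraries 32.4, 60.1 and 50.7%. In the OM library of Bonn, 36.8% is 7 of 19 cells, with an exact 95% binomial interval of 16.3 to 61.6% that covers counting error only. The 7 resident macrophage markers summed to 1450 to 2525 CPM in NK cells of Aachen, 47.1 to 568 CPM in those of Bonn and 229 to 724 CPM in those of Hamburg, and their part in the result was not tested. Within NK_cell_1 alone, fitted without that library, 0.145% of 3458 genes passed for medulla against cortex and none of the set was among them. Gzma differed there by 0.22 ± 0.14 (log2, SE; edgeR adjusted p near 1), with differences of 0.41, 0.05 and 0.14 in Aachen, Bonn and Hamburg.

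Ccl5 was the gene whose medulla effect differed between the NK clusters. In NK_cell_1 it was at 27016, 41295 and 34081 CPM in cortex, OM and IM in Aachen, 16673, 16412 and 20331 CPM in Bonn and 14001, 17065 and 16090.2 CPM in Hamburg. In NK_cell_2 it was at 8374, 7737 and 5366 CPM in Aachen, 4477, 2760 and 2684 CPM in Bonn and 3511, 3310.3 and 3707 CPM in Hamburg. On the log2 scale the medulla effect was 0.44 ± 0.13 in NK_cell_1 (edgeR adjusted p = 0.305) and -0.36 ± 0.13 in NK_cell_2 (edgeR adjusted p = 0.801), positive in 3 of 3 facilities and negative in 3 of 3. In NK_cell_2 the difference of Hamburg was only -0.06, against -0.35 in Aachen and -0.69 in Bonn, and its IM lay above its cortex. The test of the difference itself gave 0.79 ± 0.15 (edgeR interaction term over 8 libraries of each cluster, adjusted p = 1.97e-04), with 0.406% of 3696 genes called. The call was lost without all Aachen libraries (0.60, adjusted p = 0.480), without all Bonn libraries (0.70, adjusted p = 0.118), without the cortex library of Aachen (0.61, adjusted p = 0.188) or of Bonn (0.62, adjusted p = 0.457), all by edgeR.

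T cells held all 10 genes above the filter, and none was called. For medulla against cortex 0.0117% of 8522 genes passed, for OM and for IM against cortex 0.0235% each, and for OM against IM 0%. Unadjusted p was under 0.05 for 503, 496, 360 and 296 genes with edgeR, and DESeq2 called none of the 10. Gzmk was at 69.3, 73.6 and 94.4 CPM in cortex, OM and IM in Aachen, 89.3, 109.6 and 118 CPM in Bonn and 77.3, 89.6 and 116 CPM in Hamburg. IM was the highest and cortex the lowest in each facility, with a log2 fold change for IM against cortex of 0.51 ± 0.12 (SE; unadjusted p = 4.7e-04, edgeR adjusted p = 0.27).

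Gzmb in T cells was lowest in OM in each facility. It was at 91.8, 85.5 and 145 CPM in cortex, OM and IM in Aachen, 67.7, 45.7 and 83.5 CPM in Bonn and 194, 143 and 229 CPM in Hamburg. OM against IM gave a log2 fold change of -0.71 ± 0.14 (SE), with an edgeR adjusted p of 0.336, or 0.026 without the cortex library of Bonn, where 0.0812% of genes passed. Ccl5 was at 10252, 12280 and 10688 CPM in Aachen, 4349, 5394 and 5767 CPM in Bonn and 4341, 4935 and 6213 CPM in Hamburg, with a medulla effect of 0.32 ± 0.10 on the log2 scale (edgeR adjusted p = 0.581). In Aachen, T_cell_2 was 37.1, 44.02 and 39.7% of T cells in cortex, OM and IM. The Bonn libraries held 24.0, 33.9 and 26.8%, and the Hamburg libraries 25.5, 31.6 and 37.9%. Within T_cell_2, where 0.019% of 5267 genes and none of the 10 passed, the medulla effect was 0.16 ± 0.12 for Gzmk and 0.16 ± 0.08 for Ccl5. Within T_cell_1, where 0.192% of 6755 genes and again none of the 10 passed, Gzma differed by -1.64 ± 0.52 (edgeR adjusted p = 0.383).

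**Figure D4:**
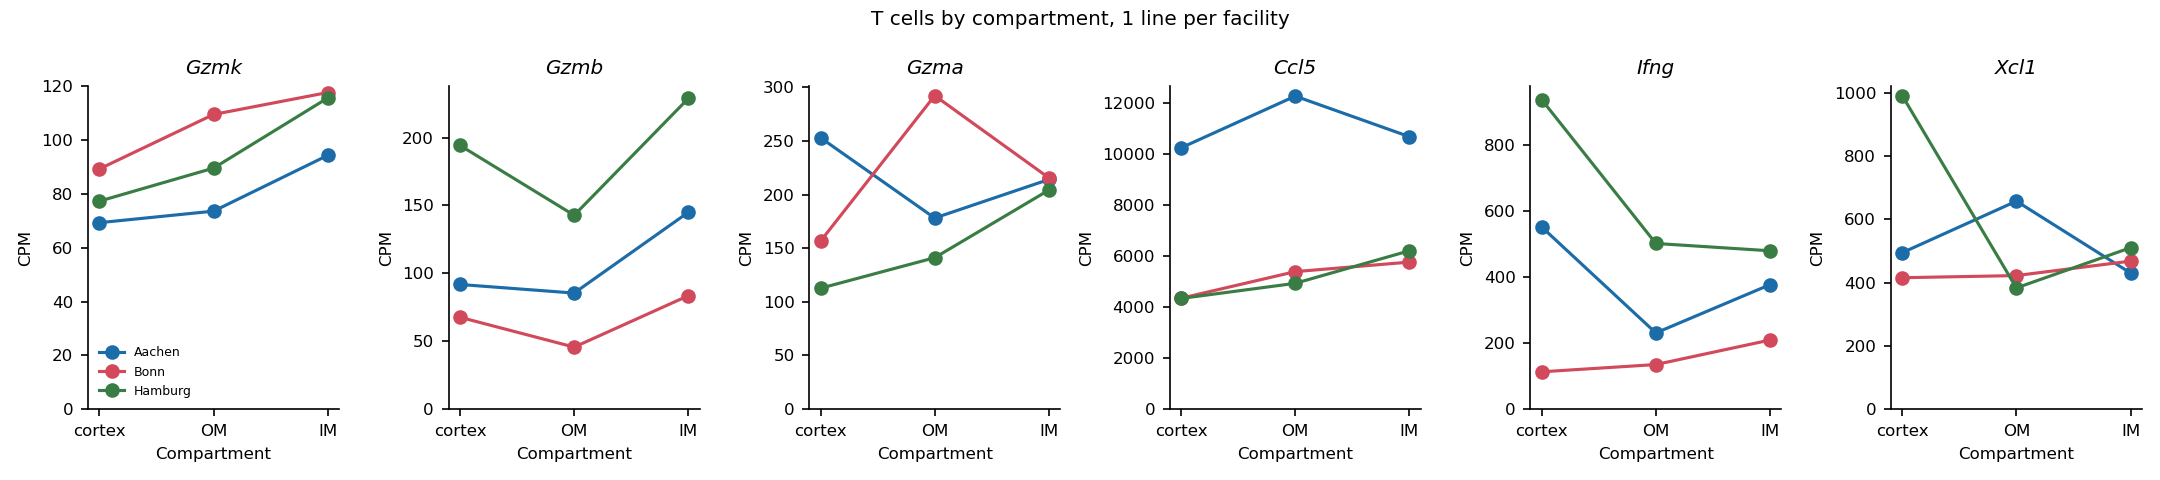
Level of Gzmk, Gzmb, Gzma, Ccl5, Ifng and Xcl1 in T cells (CPM, vertical axis) by compartment (horizontal axis), with 1 line per facility. Gzmk is highest in IM and Gzmb lowest in OM in each facility, and the lines of Ifng and Xcl1 differ in direction between facilities.

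Ifng and Xcl1 in T cells went different ways in different facilities. Ifng was at 551, 230.3 and 376 CPM in cortex, OM and IM in Aachen, 113, 135 and 209 CPM in Bonn and 936, 501 and 479 CPM in Hamburg. Medulla was lower than cortex in Aachen and Hamburg and higher in Bonn, with a log2 fold change of -0.45 ± 0.20 (SE; edgeR adjusted p = 0.825). Without the cortex library of Bonn it was -0.86 (edgeR adjusted p = 1.07e-04), where 0.522% of 8623 genes passed. Ifng was the gene called there for OM and for IM against cortex as well, with 0.487 and 0.348% of genes passing. Xcl1 was at 991 CPM in the cortex of Hamburg and between 383 and 658 CPM in the other 8 libraries. Its medulla effect of -0.35 ± 0.20 (SE; edgeR adjusted p = 0.94) became 0.14 without that library. Of the other lists, Cd81, a marker of resident macrophages, was called in T cells, at 1.20 for IM against cortex (log2, edgeR adjusted p = 0.045). The 7 macrophage markers summed to 1242 to 3516 CPM in T cells of Aachen and to 42.0 to 179 CPM in those of Bonn and Hamburg, and their part in these results was not tested.

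T_cell_4, a cluster of 161 cells with gamma delta T cell receptor genes in Bonn and Hamburg, held Nkg7 at low level. Trdv4, a delta chain variable gene, was at 1134 CPM in its Bonn cells and 869 CPM in its Hamburg cells and was listed at 0 in Aachen. Trdv4 was not confined to this cluster. The shares and levels that follow are means over facilities that count Aachen as 0, which lowers them. A Trdv4 UMI was found in 18.9% of T_cell_4, 18.0% of NK_cell_1, 22.1% of NK_cell_2 and 25.7% of ILC2 cells. Its mean level was 668 CPM in T_cell_4 and 82.3, 98.9 and 150 CPM in the others, in this order. Bonn and Hamburg cells of T_cell_4 also held Trac, of the alpha beta receptor, at 138 and 186 CPM. Trdc, a delta chain constant gene, was at 183 and 134 CPM there. In T_cell_4, Nkg7 had 95 UMIs in 24 cells. For Nkg7, medulla against cortex gave a log2 fold change of -3.23 ± 0.54 (SE; edgeR adjusted p = 1.57e-04) over 7 libraries, where 0.281% of 1779 genes passed. The cortex library of Aachen (8 cells) and the OM library of Bonn (2 cells) fell below the minimum of 10 cells. Cortex was therefore represented by Bonn and Hamburg alone. Nkg7 was listed at 0 CPM in the OM library of Hamburg and at 134 CPM in its IM library, against 349 CPM in its cortex library. The call was lost without the OM library of Hamburg (-1.36, edgeR adjusted p = 0.704), without its cortex library (-4.70, edgeR adjusted p = 0.814), and with DESeq2 (-3.61, adjusted p = 0.999). It was also lost without the facility block (-2.60) and without possible doublets (-3.51).

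ILC2 are the group 2 innate lymphoid cells, which make type 2 cytokines. Their 8 markers summed to 1790 to 4699 CPM over the facilities in the 424 ILC2 and to 243 to 325 CPM in NK cells. Gzma was at 0 to 18.4 CPM and Prf1 at 0 to 6.58 CPM over the facilities. Gzmb stood out, at 198 CPM in the cortex of Aachen, 463 CPM in the cortex of Bonn and 1095 CPM in the cortex of Hamburg. In the medulla libraries it was at 302 CPM in the IM of Aachen and 21.6 CPM or less in the other 5. Only Gzmb and Ccl5 could be tested, and neither was called in any contrast. For each of the 3 contrasts against cortex 0.0724% of 1381 genes passed, and for OM against IM 0%. Unadjusted p was under 0.05 for 88, 87, 84 and 62 genes with edgeR, and DESeq2 called none of the 10. The medulla effect of Gzmb was -4.52 ± 0.79 on the log2 scale (SE; edgeR adjusted p = 0.062). It was called without the cortex, the OM or the IM library of Aachen (-6.66, -4.43 and -6.62) and without the OM or the IM library of Bonn (-4.46 and -4.32), with edgeR adjusted p from 2.76e-06 to 0.0453, and without the cortex library of Hamburg it was -2.88 (edgeR adjusted p = 0.742). With the OM library of Bonn left out, 0.299, 0.0427 and 0.171% of 2344 genes passed for medulla, OM and IM against cortex. For the other libraries left out, the share of all genes called is not given here. With no filter on low counts, 0.251, 0.172 and 0.282% of 12768 genes passed for these contrasts and 0.133% for OM against IM, and Gzmb (-4.53 for medulla) was among them in each contrast against cortex.

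The Gzmb of ILC2 lay in 12 of 424 cells. These held 357 UMIs after rounding, and the 3 highest had 168, 83 and 54. In the 12 cells Cpa3, a protease of mast cells and basophils, had 329 UMIs and Cma1, mast cell chymase, had 111, against 55 and 1 in the other 412 cells. Mcpt8, a protease of basophils, had 103 UMIs in 2 of the 12 cells and none in the others. Gata3, the defining transcription factor of ILC2, had 4 UMIs in the 12 cells and 801 in the others. This was 95.8 and 776 CPM, with a Gata3 UMI in 2 of the 12 cells and 283 of the other 412. Prf1, Gzma, Ncr1 and Cd3e had 0 UMIs in the 12 cells. Other genes of ILC2 and of lymphocytes were present in them. An ILC2 marker UMI was found in 83.3% of the 12 cells and in 84.7% of the others, and a UMI of a Cd3 gene in 8.33 and 10.9%. Il1rl1, a receptor for IL-33, was at 407 CPM in the 12 cells and 287 CPM in the others, and the type 2 cytokine Il13 was at 551 and 218 CPM. Areg went the other way, at 479 CPM in the 12 cells and 1436 CPM in the others. Kit was at 982 and 66.9 CPM and Gata2 at 647 and 2.91 CPM. Which cell type the 12 cells belong to was not tested. Nkg7 had 17 UMIs in 5 of the 12 cells, at 407 CPM against 32.9 CPM in the others. Of these cells, 7 had a UMI of Cma1, Hdc or Gata2 and held 97.5% of the Gzmb UMIs. Those 3 genes were chosen after their values were seen, and without the cells that have them Gzmb no longer passed the filter on low counts.

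**Figure D5:**
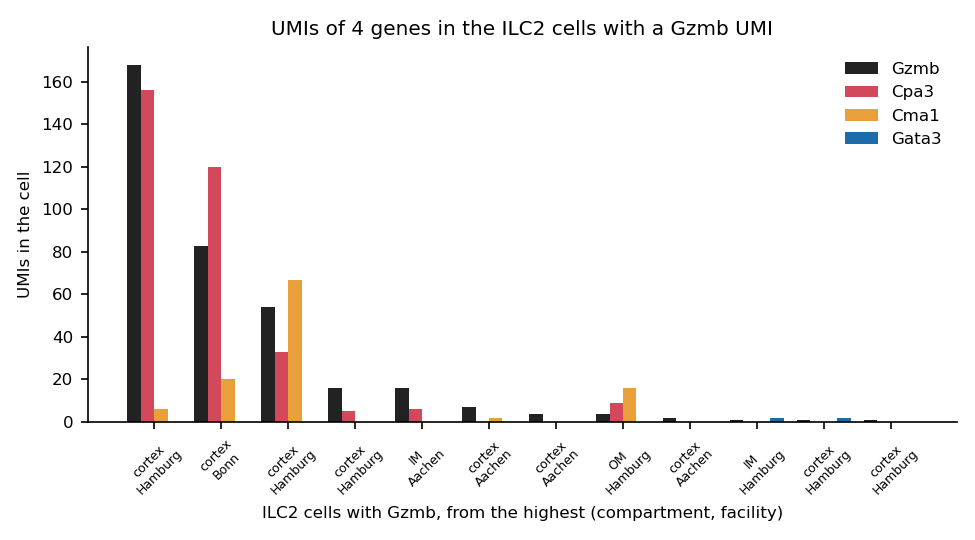
UMIs of Gzmb, Cpa3, Cma1 and Gata3 (vertical axis) in each of the 12 ILC2 cells with a Gzmb UMI (horizontal axis), ordered by Gzmb. The 3 cells with most Gzmb hold 168, 83 and 54 UMIs, and Gata3 sums to 4 UMIs over the 12 cells.

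Over all immune cells together, where fewer lymphocytes and less RNA per lymphocyte cannot be told apart, all 10 genes were tested and none was called. For medulla against cortex 0.00779% of 12835 genes passed, and for the other 3 contrasts 0%. Unadjusted p was under 0.05 for 1518, 1888, 634 and 415 genes with edgeR. Fasl had a log2 fold change of -0.84 ± 0.23 (SE; edgeR adjusted p = 0.28) for medulla against cortex, Ifng -0.85 ± 0.30, Xcl1 -0.81 ± 0.27, Ctsw -0.73 ± 0.32 and Nkg7 -0.61 ± 0.28. Each of these 5 was negative in 3 of 3 facilities for OM and IM averaged, but not for IM alone. In Aachen, IM lay above cortex for Nkg7 (1146 against 838 CPM after TMM scaling), Ctsw (235 against 168) and Xcl1 (395 against 327). Fasl was nearly equal there (32.7 against 31.9), and Ifng was lower in IM (217 against 229). In Bonn and Hamburg, IM lay below cortex for all 5. Over all 10 genes the median was -0.73, against 0.0021 over all genes tested. T cells were 30.3, 32.6 and 40.7% of the cortex cells of Aachen, Bonn and Hamburg, 12.05, 19.0 and 18.6% of their OM cells and 32.4, 15.5 and 31.1% of their IM cells, so that in Aachen the IM share lay above that of cortex. DESeq2 called Fasl for OM against cortex (log2 fold change -1.08, adjusted p = 0.0499), where it called 2.51% of 8605 genes, and none of the 10 in the other contrasts.

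The medulla effect was also compared between classes. Between NK and T cells none of the 10 genes differed by edgeR's interaction test, in which 0.206% of 7780 genes passed, and the lowest adjusted p of the set was 0.836, for Fasl (0.43 ± 0.18, log2, SE). Between T_cell_1 and T_cell_2 none differed either, where 0.0874% of 6864 genes passed. Gzma had the largest difference there, at -0.75 ± 0.34 (edgeR adjusted p = 0.866). Of the other lists, no gene of the 18 granule genes, 9 cytokines and chemokines, 7 receptors, 9 transcription factors or 10 interferon gamma targets passed in NK cells, T cells, ILC2 or all immune cells. For medulla against cortex their medians in NK cells were 0.09, -0.29, 0.0033, 0.16 and 0.07 on the log2 scale, over the 7, 4, 2, 8 and 3 genes that could be tested.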

How the data were processed

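Immune cells of the cortex and of the outer (OM) and inner (IM) medulla were profiled at 3 facilities. The authors aligned and counted reads with Cell Ranger on mm10, kept cells by genes detected and mitochondrial share, and clustered and named them in Seurat. The deposited table holds estimated counts (UMIs) per gene and cell. Values were whole in Aachen and Bonn cells, while 0.118% of nonzero Hamburg values were whole, by a step not given in the sources used here. Values of at least 0.5 were taken as a UMI for shares, and sums were rounded for the tests.

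Counts were summed per library and class (T_cell_1 to T_cell_4; NK_cell_1 and NK_cell_2; ILC2; all cells) with at least 10 cells, and CPM is per 1000000 UMIs of the unscaled sum. The main test was edgeR 4.0.16 in R 4.3.3 (quasi-likelihood, filterByExpr, TMM, Benjamini-Hochberg, threshold 0.05) with facility as block. The pairing comes from the facility labels. Differences per facility are log2 CPM after TMM scaling with a prior count of 2. Shares of cells were thinned to 500 UMIs per cell. Possible doublets, with at least 2 UMIs of B cell or macrophage markers, were kept and left out as an alternative. DESeq2 1.42.0 was another. All scripts were tested on simulated data. Intervals cover counting error only.

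All 10 genes are named. List genes are named where called or among the 4 highest of a list, and likeness is over genes of at least 50 CPM in some cluster. The members and lists were chosen with earlier results of these data known. The interaction fits between clusters, the alternatives for T_cell_4 and the ILC2 fit without some cells were added after seeing the data.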

Additional observations from a re-analysis of the deposited data

Results flagged for a closer look

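The medulla effect on Ccl5 differed between the NK clusters. On the log2 scale it was 0.44 ± 0.13 (SE) in NK_cell_1 and -0.36 ± 0.13 in NK_cell_2, and the difference was 0.79 ± 0.15 (edgeR interaction term, adjusted p = 1.97e-04), with the effect positive in 3 of 3 facilities for NK_cell_1 and negative in 3 of 3 for NK_cell_2, there at only -0.06 in Hamburg. The fit was added after seeing the data. Leaving out single libraries gave differences of 0.61 to 1.01. By edgeR the call was lost without the cortex library of Aachen (0.61, adjusted p = 0.188) or of Bonn (0.62, adjusted p = 0.457), and without all Aachen (0.60, adjusted p = 0.480) or all Bonn libraries (0.70, adjusted p = 0.118).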

How the results depend on the processing

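With a minimum of 20 cells per library, 2, 4, 2 and 1 of the 10 genes were called in NK cells for medulla, OM and IM against cortex and for OM against IM, and 1 in ILC2 for medulla. With no filter on low counts, 2, 1 and 1 were called in T cells for medulla and OM against cortex and OM against IM, and 2, 1, 2 and 1 in ILC2. DESeq2 called 1, Fasl, over all cells for OM against cortex. Leaving out 1 library or facility at a time, the number called was 0 to 3, 0 to 4, 0 to 2 and 0 to 1 in NK cells, 0 to 1 in each contrast of T cells, 0 to 2, 0 to 1 and 0 to 1 in ILC2 against cortex and 0 to 2 over all cells for OM against cortex. In NK and T cells each of these calls came with a Bonn library left out, and the cause was not tested. The share of all genes called is not given here for T cells with no filter. It is also not given for removals of a library or facility beyond those stated above. Counts without such a share are no result about the 10 genes.

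Over all alternatives, 58 of 124 log2 fold changes tested in the 4 cell classes had the opposite sign under at least 1, such as Ifng in NK cells (-0.64 to 0.50) and Prf1 in T cells (-0.49 to 0.59) for medulla against cortex. Among the fold changes followed through each removal of a library or facility, 5 turned. For OM against cortex in NK cells, Ccl5 ranged from -0.024 to 0.95, Gzmb from -0.15 to 0.90 and Xcl1 from -0.72 to 0.12. In T cells, Xcl1 ranged from -0.60 to 0.14 for medulla against cortex and Ifng from -0.77 to 0.13 for IM against cortex. Without the replicate block, 0 of the 10 genes were called in each contrast of NK cells, T cells, ILC2 and all cells. Gzma in NK cells was then 0.57 and Ccl5 0.66 for medulla against cortex, and the call of Nkg7 in T_cell_4 was lost (-2.60). NK cells were few in some libraries, down to 19 in the OM of Bonn.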
